A study of Homo sapiens with 6 samples.

Results

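The genes described here are 10 transcripts that cells raise when ERK is active and that report or restrain that activity: the MAP kinase phosphatases DUSP4, DUSP5 and DUSP6, the Sprouty genes SPRY1, SPRY2 and SPRY4, the SPRED genes SPRED1 and SPRED2, and the ETS transcription factors ETV4 and ETV5 of the PEA3 subfamily. They were taken by symbol from a count table of 30327 genes, and all 10 were found. Poly(A) RNA was sequenced from SK-BR-3, an established HER2-positive breast cancer line, in 6 libraries, of which 3 are described as si_NC (nontargeting control siRNA) and 3 as si_GRB2. The titles of the si_GRB2 libraries name GRB2 overexpression, whereas their descriptions name si_GRB2. The methods of the study describe an siRNA against GRB2 but also call the sequenced group an overexpression group. The genotype label is control for si_NC and GRB2 overexpression for si_GRB2. The methods give a single siRNA against GRB2, other duplexes are listed in a supplement, and which one these libraries received is not stated, so that loss of GRB2 and unintended targets of the duplex cannot be told apart. Neither the time of RNA collection for sequencing nor the separate origin of the replicates is given, so that p-values measure the spread between these libraries, which may be technical.

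GRB2 is an adaptor that links phosphorylated receptors such as HER2 to the RAS exchange factors SOS1 and SOS2, and RAS drives RAF, MEK and ERK. Active ERK induces its own brakes. DUSP proteins remove phosphate from MAP kinases, Sprouty proteins interfere with the step from receptor to RAS and RAF, SPRED proteins bring the RAS inhibitor neurofibromin to the membrane, and the PEA3 factors ETV4 and ETV5 are transcription factors whose genes are released from the repressor CIC when ERK is active. The mRNA of these genes is therefore often read as a measure of ERK output.

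The libraries held 24810378 to 28532480 reads assigned to genes. GRB2 itself had 123.9, 129.5 and 125.7 CPM (reads scaled to a common library size with the TMM factors of edgeR) in si_NC and 27.8, 28.1 and 29.6 CPM in si_GRB2. Every library named si_GRB2 thus had less GRB2 mRNA than every si_NC library, which goes against the overexpression named in the titles and fits the descriptions. The log2 fold change of GRB2 was −2.15 (SE 0.04, adjusted p = 3.87e-15, quasi-likelihood test of edgeR). The line showed its luminal and HER2 markers at high levels, with a sum over ERBB2, GRB7, KRT8, KRT18, KRT19 and EPCAM of 17380 to 17770 CPM in si_NC and of 14540 to 15130 CPM in si_GRB2. Of these 6 markers, 5 were lower in si_GRB2 and ERBB2 was higher, and their part in the results was not tested. Markers of other cell types (VIM, COL1A1, COL1A2, PTPRC and PECAM1) summed to between 109 and 166 reads per library in si_NC and between 109 and 129 reads in si_GRB2. COL1A1 held most of these reads, with 104 to 149 per library. VIM, PTPRC and PECAM1 were at or near 0, with at most 8 reads in any library. Of the hormone receptors, PGR had at most 3 reads in a library, and ESR1 had 24 to 38.

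Of the 10 feedback and PEA3 genes, 9 had enough reads for the test. All 9 had a log2 fold change below 0 in si_GRB2, and 6 of them fell: DUSP4, DUSP5, SPRY4, SPRED1, SPRED2 and ETV4 (adjusted p under 0.05 over 15801 genes, quasi-likelihood test of edgeR). For comparison, 15.5% of all tested genes fell by the same rule and 15.2% rose, while 0 of the 9 genes rose, also at an unadjusted p under 0.05 and with DESeq2. The fall exceeded 1.5-fold at an adjusted p under 0.01 in 5 genes, all but SPRED2, against 1.69% of tested genes. In the same 6 genes every si_GRB2 library lay below every si_NC library, which was the case for 21.2% of tested genes. DUSP6, SPRY1 and SPRY2 did not pass the test, and their groups overlapped. Without si_GRB2 replicate 2 the number past 1.5-fold was 3. In limma tests of the FPKM of the authors, on log2(FPKM + 0.1), 3 of 10 genes (DUSP4, DUSP5 and SPRED2) fell, beside 607 of 29912 genes tested there. Of all genes called, 50.5% were lower in si_GRB2 by the main test, against 33.5% when libraries were scaled by their totals alone and 36.7% to 40.4% in tests of FPKM. The median log2 fold change was −0.62 over the 9 genes and 0.0019 over all tested genes. In limma tests it was −0.23 over 10 genes on log2(FPKM + 1) and −0.44 on log2(FPKM + 0.1). Over the 4 genes tested on log2(FPKM + 1) at a mean FPKM of at least 1 it was −0.39. The medians over all genes in these tests were 0.0048, 0.028 and 0.036. In bulk RNA, fewer transcripts per cell and fewer cells that carry the transcript cannot be told apart.

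**Figure D1:**
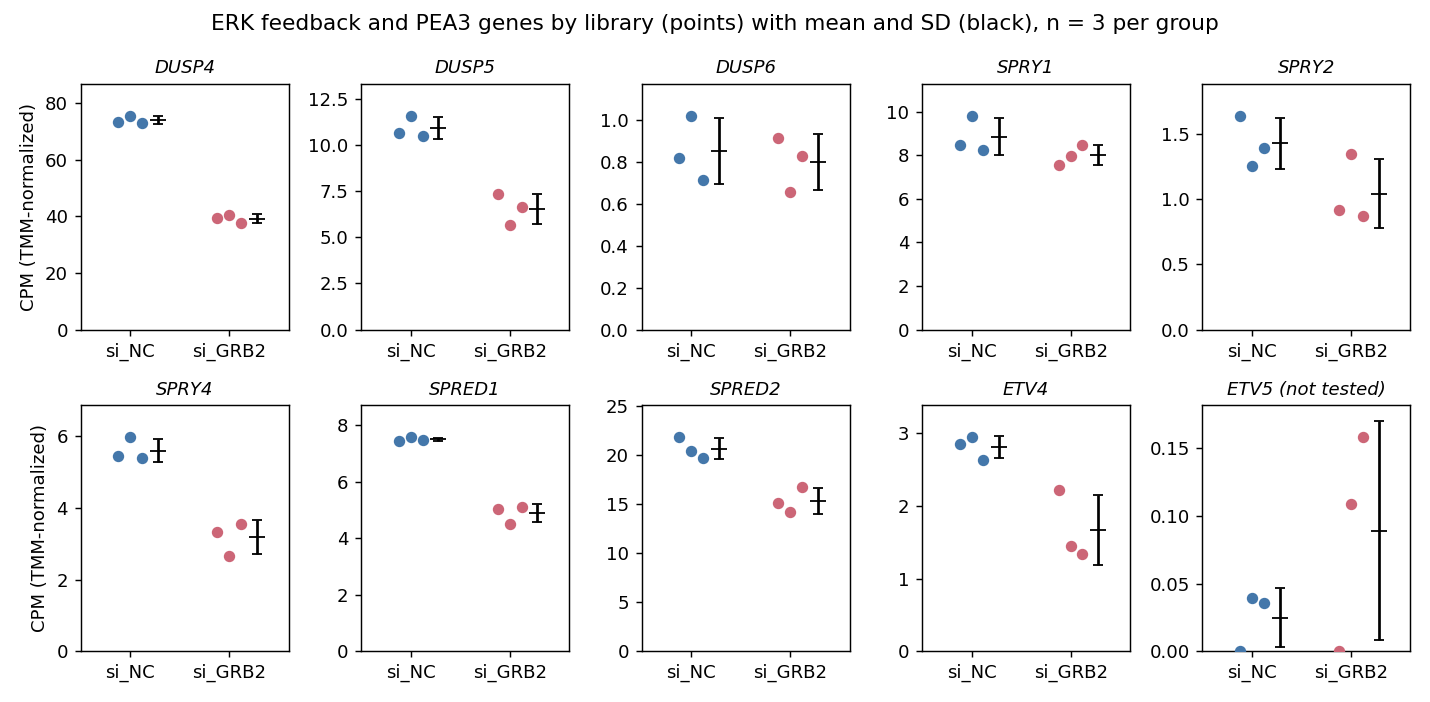
TMM-normalized CPM of the 10 genes in each library (points, 3 per group), with the group mean and SD in black. The si_NC and si_GRB2 points are apart for DUSP4, DUSP5, SPRY4, SPRED1, SPRED2 and ETV4, they overlap for DUSP6, SPRY1 and SPRY2, and ETV5 stays below 0.16 CPM in every library.

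The sequence around the transcription start was available for 6 of the genes, namely DUSP6, SPRY1, SPRY2, SPRY4, SPRED1 and SPRED2, from RefSeq on GRCh38.p14 (250 bases before the start and 50 after). Windows of DUSP4, DUSP5, ETV4 and ETV5 were not analysed here. The windows of 3 genes that fell (SPRY4, SPRED1 and SPRED2) and of 1 that did not pass the test (DUSP6) are printed side by side. DUSP6 was not tested against the other 3, and its interval includes the estimates of SPRED1 and SPRED2. The coordinates are chr5:142324198-142324497 for SPRY4, chr15:38252586-38252885 for SPRED1, chr2:65432550-65432849 for SPRED2 and chr12:89352452-89352751 for DUSP6, of which SPRED1 is on the plus strand and the others are on the minus strand. Capitals mark the motifs found on either strand: AGGAAG (the PEA3 motif, CTTCCT on the other strand) and TGACG (the core of the cyclic AMP response element, CGTCA on the other strand).
SPRY4: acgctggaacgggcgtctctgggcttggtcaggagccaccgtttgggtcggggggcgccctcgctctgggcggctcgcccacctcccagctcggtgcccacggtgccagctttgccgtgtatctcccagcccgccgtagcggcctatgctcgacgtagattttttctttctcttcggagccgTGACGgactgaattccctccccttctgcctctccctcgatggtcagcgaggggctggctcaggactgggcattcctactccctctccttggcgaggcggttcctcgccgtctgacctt
SPRED1: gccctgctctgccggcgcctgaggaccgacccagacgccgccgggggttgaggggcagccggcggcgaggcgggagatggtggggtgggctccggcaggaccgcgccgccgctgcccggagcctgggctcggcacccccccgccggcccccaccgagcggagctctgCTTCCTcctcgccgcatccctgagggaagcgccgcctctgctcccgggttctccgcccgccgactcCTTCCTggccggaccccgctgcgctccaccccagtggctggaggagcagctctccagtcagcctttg
SPRED2: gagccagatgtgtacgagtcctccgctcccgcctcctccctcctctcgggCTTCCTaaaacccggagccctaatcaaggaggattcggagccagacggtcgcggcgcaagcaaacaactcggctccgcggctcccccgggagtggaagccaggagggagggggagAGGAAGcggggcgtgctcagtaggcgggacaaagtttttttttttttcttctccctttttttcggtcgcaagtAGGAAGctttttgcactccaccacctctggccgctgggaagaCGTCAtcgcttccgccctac
DUSP6: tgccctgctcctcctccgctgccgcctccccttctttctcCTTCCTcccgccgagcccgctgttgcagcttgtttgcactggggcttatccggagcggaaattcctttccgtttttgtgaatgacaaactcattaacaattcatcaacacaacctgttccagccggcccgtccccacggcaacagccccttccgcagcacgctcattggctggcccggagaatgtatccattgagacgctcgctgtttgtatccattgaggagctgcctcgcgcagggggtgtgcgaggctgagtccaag

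AGGAAG stood at bases −83 and −17 from the start (counted as 0) of SPRED1, at −200, −85 and −12 of SPRED2 and at −210 of DUSP6, and the SPRY4 window held none. The SPRY4 window ends at 142324497, inside the gene span given below, which reaches 142326455. Sequence around that upstream end was not scanned. Over all windows of the 6 genes, AGGAAG was in 8 of 10, in every gene but SPRY4. These letters are common, since 33.6% of the 35116 RefSeq promoter windows hold AGGAAG and 24.6% hold TGACG. The stronger ETS motif CCGGAA, present in 17.2% of all windows, was found in 1 window each of SPRY1 and SPRY2, whose mRNA did not pass the test, and in none of the 4 windows printed. TGAGTCA, the AP-1 motif, occurs in 4.95% of windows and was found only in a second, downstream window of SPRED2. The CIC motifs TGAATGAA (1.65% of windows) and TGAATGGA (1.03%) were in none of the 10 windows of these 6 genes. The motifs did not overlap each other in these windows, and a match or its absence here describes only the letters of the window.

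Among the phosphatases, DUSP4, an inducible nuclear phosphatase of ERK, JNK and p38, carried by far the most reads. It had 73.4, 75.5 and 73.0 CPM in si_NC and 39.4, 40.5 and 37.5 CPM in si_GRB2. The si_GRB2 libraries were all lower, and the libraries within each group lay close together. The level in si_GRB2 was 53.0% of that in si_NC, a log2 fold change of −0.92 (SE 0.04, 95% interval −1.004 to −0.83, adjusted p = 1.37e-10, edgeR). Only 0.835% of tested genes had a lower log2 fold change. DUSP4 (ENSG00000120875.9) spans 29333064 to 29350684 of chromosome 8 (GRCh38, minus strand), and its canonical transcript has 4 exons.

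DUSP5, a nuclear phosphatase that acts on ERK and anchors it in the nucleus, was lower as well. Its values were 10.7, 11.6 and 10.5 CPM in si_NC and 7.31, 5.68 and 6.64 CPM in si_GRB2. The highest si_GRB2 library stayed well below the lowest si_NC library. The log2 fold change was −0.74 (SE 0.10, 95% interval −0.96 to −0.52, adjusted p = 4.13e-05, edgeR), which leaves 59.9% of the control level. DUSP5 (ENSG00000138166.6) spans 110497907 to 110511533 of chromosome 10 (plus strand).

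DUSP6, the cytoplasmic phosphatase specific for ERK and a widely used readout of ERK activity, had few reads in this line, between 18 and 26 per library. It had 0.82, 1.02 and 0.71 CPM in si_NC and 0.91, 0.66 and 0.83 CPM in si_GRB2, so that the groups were interleaved. The log2 fold change was −0.09 (SE 0.27, adjusted p = 0.854, edgeR). Its 95% interval, from −0.66 to 0.49, includes a fall as large as the 1.5-fold limit, and at this depth such a fall could not be told from none. DUSP6 (ENSG00000139318.8) spans 89347235 to 89352501 of chromosome 12 (minus strand). A lncRNA on the opposite strand shares 1105 exon bases with it but had 1 read in all.

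SPRY4 was the Sprouty gene that fell. Sprouty proteins are cytoplasmic antagonists of receptor tyrosine kinases, and some bind GRB2 itself when phosphorylated. SPRY4 had 5.46, 5.96 and 5.38 CPM in si_NC and 3.34, 2.66 and 3.56 CPM in si_GRB2, with no overlap. The log2 fold change was −0.82 (SE 0.14, 95% interval −1.11 to −0.52, adjusted p = 0.000304, edgeR). Without si_GRB2 replicate 1 the estimate of ETV4 (−1.001) lay below that of DUSP4 (−0.92), and without si_GRB2 replicate 3 that of SPRY4 (−0.90) lay below that of DUSP4 (−0.89), so the order among these genes is not fixed. SPRY4 (ENSG00000187678.10) spans 142310427 to 142326455 of chromosome 5 (minus strand). The antisense gene SPRY4-AS1 overlaps its span but shares 0 exon bases with it, and had 37 reads over the 6 libraries against 703 for SPRY4.

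SPRY1 and SPRY2 did not pass the test. SPRY1 had 8.49, 9.81 and 8.24 CPM in si_NC and 7.55, 7.98 and 8.45 CPM in si_GRB2, and its highest si_GRB2 value lay above the lowest of si_NC. With 719 reads in si_NC and 623 in si_GRB2, SPRY1 was measured well enough to bound the change. Its log2 fold change was −0.14 (SE 0.10, adjusted p = 0.308, edgeR), with a 95% interval of −0.35 to 0.06 that does not reach the 1.5-fold limit. SPRY2 had 1.64, 1.26 and 1.39 CPM in si_NC and 0.91, 1.35 and 0.87 CPM in si_GRB2. The second si_GRB2 library lay within the range of si_NC and the other two lay below it. The log2 fold change of SPRY2 was −0.45 (SE 0.24, 95% interval −0.96 to 0.06, adjusted p = 0.183, edgeR), and without si_GRB2 replicate 2 it was −0.68 (adjusted p = 0.0804, edgeR). SPRY1 (ENSG00000164056.11) spans 123396795 to 123403760 of chromosome 4 (plus strand), and SPRY2 (ENSG00000136158.12) spans 80335976 to 80341126 of chromosome 13 (minus strand).

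Both SPRED genes fell. SPRED1, which in its mutated form causes a disorder related to neurofibromatosis, had 7.45, 7.57 and 7.49 CPM in si_NC and 5.05, 4.52 and 5.10 CPM in si_GRB2. The si_NC libraries were almost identical and all above si_GRB2. Its log2 fold change was −0.62 (SE 0.11, 95% interval −0.85 to −0.39, adjusted p = 0.000326, edgeR). SPRED2, the more abundant of the pair, had 21.8, 20.4 and 19.7 CPM in si_NC and 15.1, 14.2 and 16.8 CPM in si_GRB2, again without overlap. It retained 74.4% of the control level, a log2 fold change of −0.43 (SE 0.07, 95% interval −0.58 to −0.28, adjusted p = 0.000201, edgeR), which is short of 1.5-fold. SPRED1 (ENSG00000166068.13) spans 38252836 to 38357249 of chromosome 15 (plus strand), and SPRED2 (ENSG00000198369.10) spans 65310851 to 65432637 of chromosome 2 (minus strand).

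ETV4, a PEA3 factor that activates genes of invasion and growth, had few reads (34 to 80 per library). The values were 2.85, 2.94 and 2.64 CPM in si_NC and 2.23, 1.46 and 1.34 CPM in si_GRB2. The first si_GRB2 library came nearest to si_NC and the groups did not overlap. ETV4 fell with a log2 fold change of −0.75 (SE 0.20, 95% interval −1.17 to −0.33, adjusted p = 0.00861, edgeR). Without si_GRB2 replicate 3 the log2 fold change was −0.62 and the call was lost (adjusted p = 0.0524, edgeR). ETV4 (ENSG00000175832.13) spans 43527844 to 43579620 of chromosome 17 (minus strand), and DHX8 on the opposite strand shares 68 exon bases with it. DHX8 had 3790 reads in all against 359 for ETV4, and although the libraries mark strand, whether the counting used it is not stated, so reads on the shared bases cannot be assigned. DHX8 had 23.9 ± 1.55 CPM in si_NC and 23.6 ± 1.79 CPM in si_GRB2 (SD, n = 3) and did not pass the test (log2 fold change −0.02, adjusted p = 0.893, edgeR).

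ETV5 (ENSG00000244405.8, chromosome 3, minus strand, 186046314 to 186110318) was close to silent, with 0, 1 and 1 reads in si_NC and 0, 3 and 4 reads in si_GRB2. It did not pass the filter on low counts, and no fold change is given for such numbers. ETV1, the other PEA3 factor, was not among the 10 genes and is covered with the ETS family further on.

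**Figure D2:**
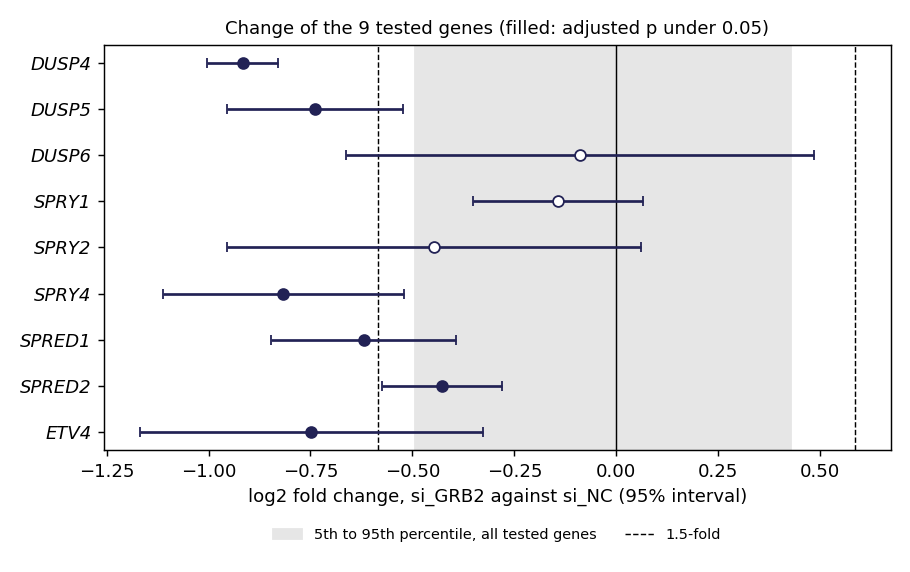
Log2 fold change of si_GRB2 against si_NC with its 95% interval for the 9 tested genes (filled points have an adjusted p under 0.05), the 1.5-fold limits (dashed) and the 5th to 95th percentiles of all tested genes (grey, −0.49 to 0.43). All 9 points lie left of 0, and DUSP4 at −0.92 has the narrowest interval.

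How far paired relatives moved apart was read from the log2 ratio of their CPM within each library, with a prior count of 2. Library scaling cancels in this ratio except in the prior count, which weighs most on genes with few reads. DUSP4 exceeded DUSP6 by a log2 ratio of 6.36, 6.11 and 6.53 in si_NC and of 5.32, 5.80 and 5.38 in si_GRB2, a difference of −0.84. DUSP5 exceeded DUSP6 by 3.58, 3.41 and 3.74 in si_NC and by 2.90, 2.98 and 2.89 in si_GRB2, a difference of −0.66. In both pairs the ratio was lower in every si_GRB2 library and the groups did not overlap. The ratio of SPRED1 to SPRED2 was −1.54, −1.42 and −1.39 in si_NC and −1.57, −1.63 and −1.71 in si_GRB2, with a small difference of −0.19 and no overlap. Each of these 3 pairs gave p = 0.1 in the exact permutation test (two-sided), the smallest that 3 libraries against 3 allow, and an adjusted p of 0.2 over 6 pairs, so that this test could not pass 0.05 for any pair. The groups overlapped for SPRY1 against SPRY2 (difference 0.30, exact permutation p = 0.3, adjusted 0.36) and for SPRY4 against SPRY2 (difference −0.37, exact permutation p = 0.5, adjusted 0.5). The ratio of ETV4 to ETV5 rests on at most 4 reads of ETV5 in a library and is not interpreted.

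Levels of different genes were compared in the FPKM of the authors, which divide by gene length. DUSP4 led in si_NC with 8.16 ± 0.271 FPKM (SD, n = 3), followed by DUSP5 with 3.45 ± 0.175, SPRED2 with 3.01 ± 0.0666 and SPRY1 with 1.79 ± 0.157. SPRED1 (0.78 ± 0.03), SPRY4 (0.687 ± 0.0351), ETV4 (0.643 ± 0.0231), SPRY2 (0.357 ± 0.0451) and DUSP6 (0.177 ± 0.0306) were all below 1 FPKM, and ETV5 was listed at 0 to 0.02 in every library. In si_NC the libraries of neighbouring genes in this order overlapped only for SPRY4 and ETV4. In si_GRB2, DUSP4 still led with 4.46 ± 0.22 FPKM, while SPRED2 (2.31 ± 0.206) stood above DUSP5 (2.13 ± 0.211) with overlapping libraries.

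Within each family the shares of the summed FPKM showed which relative supplied the transcript. DUSP4 made up 69.2% ± 0.887 of the 3 phosphatases in si_NC and 65.9% ± 3.37 in si_GRB2 (SD, n = 3), with overlapping libraries. DUSP6 made up 1.5% ± 0.242 and 2.51% ± 0.383, without overlap. SPRY1 made up 63.1% ± 2.24 of the Sprouty transcripts in si_NC and 71.3% ± 0.942 in si_GRB2, and SPRY4 made up 24.2% ± 0.455 and 17.1% ± 2.54, both without overlap between groups. The shares themselves were not tested. SPRED2 supplied 79.4% ± 0.907 of the SPRED transcripts in si_NC and 81.6% ± 0.653 in si_GRB2, also without overlap.

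**Figure D3:**
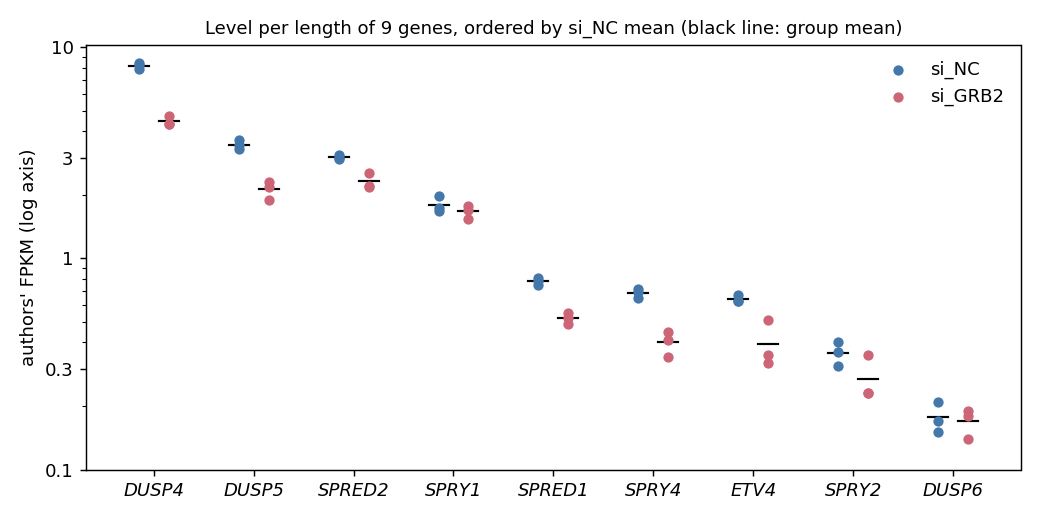
FPKM of the authors (log axis) for 9 genes in each library, ordered by the si_NC mean, with group means as black lines. ETV5 (0 to 0.02 FPKM) is left off the log axis. DUSP4 is highest in both groups at 8.16 and 4.46 FPKM, and DUSP6 is lowest of the genes drawn.

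The wider ERK route was described with lists of genes chosen by role, with earlier results of these data known. The study itself names CCND1, a gene of the first list, as lower, so the counts are a description. Of 14 other genes known to be induced by ERK, 13 were tested, and 7 fell and 1 rose, beside 15.5% and 15.2% of all tested genes. Their median log2 fold change was −0.16. In limma tests on log2(FPKM + 1) and log2(FPKM + 0.1) 4 of 14 fell and 0 rose, with medians of −0.06 and −0.08. Of all 29912 genes in these tests, 566 and 607 fell, and 834 and 927 rose. LIF, a cytokine, had 1.03, 1.29 and 2.21 CPM in si_NC and 0.36, 0.51 and 0.43 CPM in si_GRB2, a log2 fold change of −1.79 (SE 0.33, adjusted p = 0.000593, edgeR) on 9 to 62 reads per library. LIF kept this call in 13 of 15 other settings and lost it with limma on log2(FPKM + 1) and log2(FPKM + 0.1). PHLDA1, an early-response gene often read together with DUSP and SPRY genes, had 4.99, 6.83 and 6.95 CPM in si_NC and 2.50, 2.88 and 2.88 CPM in si_GRB2. Its log2 fold change was −1.18 (SE 0.15, adjusted p = 2.25e-05, edgeR). The cyclin CCND1, which drives entry into the cell cycle, fell from 277.6 ± 3.59 to 154.3 ± 3.67 CPM (SD, n = 3), which is −0.85 on the log2 scale (SE 0.03, adjusted p = 5.94e-12, edgeR). EGR1, the only other gene of this list with a fall past 1.5-fold at an adjusted p under 0.01 and named after its value was seen, fell by 0.71 on the log2 scale (adjusted p = 0.000235, edgeR). PHLDA1, CCND1 and EGR1 kept their calls in all other settings that tested them. HBEGF, an EGF-family ligand, was the gene that rose, by 0.60 on the log2 scale (adjusted p = 0.0346, edgeR), also named after its value was seen. HBEGF kept this call in 9 of 16 other settings. It lost the call with DESeq2 and with limma on log2(FPKM + 1) and log2(FPKM + 0.1). The call was also lost when si_NC replicate 1, si_NC replicate 3, si_GRB2 replicate 1 or si_GRB2 replicate 3 was left out.

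Of 14 other negative regulators of this route, 13 were tested, and 3 fell and 2 rose, beside 15.5% and 15.2% of all tested genes, with a median log2 fold change of 0.0051 that lay between −0.02 and 0.06 under other settings. IL17RD, also called SEF, a membrane antagonist that holds ERK in the cytoplasm, had 7.92, 6.71 and 7.59 CPM in si_NC and 5.01, 4.66 and 3.56 CPM in si_GRB2. Its fall (log2 fold change −0.75, SE 0.13, adjusted p = 0.000405, edgeR) was the only one of the list past 1.5-fold. ERRFI1, which binds and inhibits EGFR and HER2, fell less (log2 fold change −0.27, adjusted p = 0.000727, edgeR), and the RAS GTPase activator RASAL1 rose (0.35, adjusted p = 0.00687, edgeR). The call was kept in 14 of 16 other settings for IL17RD, 14 of 17 for ERRFI1 and 15 of 17 for RASAL1. Each lost it only in limma tests of FPKM. Of 7 other MAP kinase phosphatases, 6 were tested. DUSP7, a cytoplasmic ERK phosphatase and close relative of DUSP6, fell from 14.0, 13.4 and 13.2 CPM to 9.30, 8.99 and 11.4 CPM (log2 fold change −0.45, adjusted p = 0.00108, edgeR). DUSP7 kept its call in 15 of 17 other settings and lost it with limma on log2(FPKM + 1) and log2(FPKM + 0.1). DUSP8, which acts mainly on JNK and p38, rose by 0.20 on the log2 scale (adjusted p = 0.0278, edgeR), a call kept in 10 of 17 other settings. This call was lost with DESeq2, in every limma test of FPKM, and without si_NC replicate 1, si_NC replicate 2 or si_GRB2 replicate 2. The other 4 did not pass the test.

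Of 27 further genes, the other ETS factors and the repressor CIC with its partners ATXN1 and ATXN1L, 22 were tested. Of these, 4 fell and 6 rose, beside 15.5% and 15.2% of all tested genes. Their median log2 fold change of −0.02 became 0.03 when libraries were scaled by their totals alone. ETV1, the remaining PEA3 factor, had 1.07, 1.10 and 1.25 CPM in si_NC and 0.56, 0.69 and 0.43 CPM in si_GRB2, on 11 to 35 reads per library. All si_GRB2 libraries were lower, and the log2 fold change was −1.01 (SE 0.27, 95% interval −1.58 to −0.44, adjusted p = 0.00893, edgeR). ETV1 kept its call in 13 of 15 other settings and lost it with limma on log2(FPKM + 1) and log2(FPKM + 0.1). ELK3 fell by 0.45 on the log2 scale (adjusted p = 0.00244, edgeR), while ELF5, an ETS factor of luminal progenitor cells, rose by 0.70 (adjusted p = 2.15e-06, edgeR). The call was kept in 16 of 17 other settings for ELK3 and in all 17 for ELF5. CIC itself had 25.8 CPM in si_NC and 25.5 CPM in si_GRB2 on average and did not pass the test (log2 fold change −0.02, adjusted p = 0.834, edgeR).

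The mRNA of the core route, from receptors to ERK, changed by smaller amounts. All 18 genes listed were tested, and 3 fell and 6 rose (0 to 3 and 1 to 10 under other settings). Among all tested genes 15.5% fell and 15.2% rose. The log2 fold changes of the 18 lay between −0.30 and 0.24. EGFR fell from 86.6, 87.3 and 83.7 CPM to 65.6, 71.7 and 72.2 CPM (log2 fold change −0.30, adjusted p = 4.26e-05, edgeR), and ERBB2 rose by 0.24 on the log2 scale (adjusted p = 1.14e-06, edgeR). The call was kept in 15 of 17 other settings for EGFR and in all 17 for ERBB2. None of the 18 reached 1.5-fold, which is near the share over all tested genes. Of those, 1.69% fell past 1.5-fold at an adjusted p under 0.01. By that rule 5 of the 9 feedback and PEA3 genes tested fell (1 to 5 under other settings). The lowest count came from tests of FPKM, where adding 1 pulls the fold change of genes with low FPKM towards 0. The lists were not tested against each other.

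**Figure D4:**
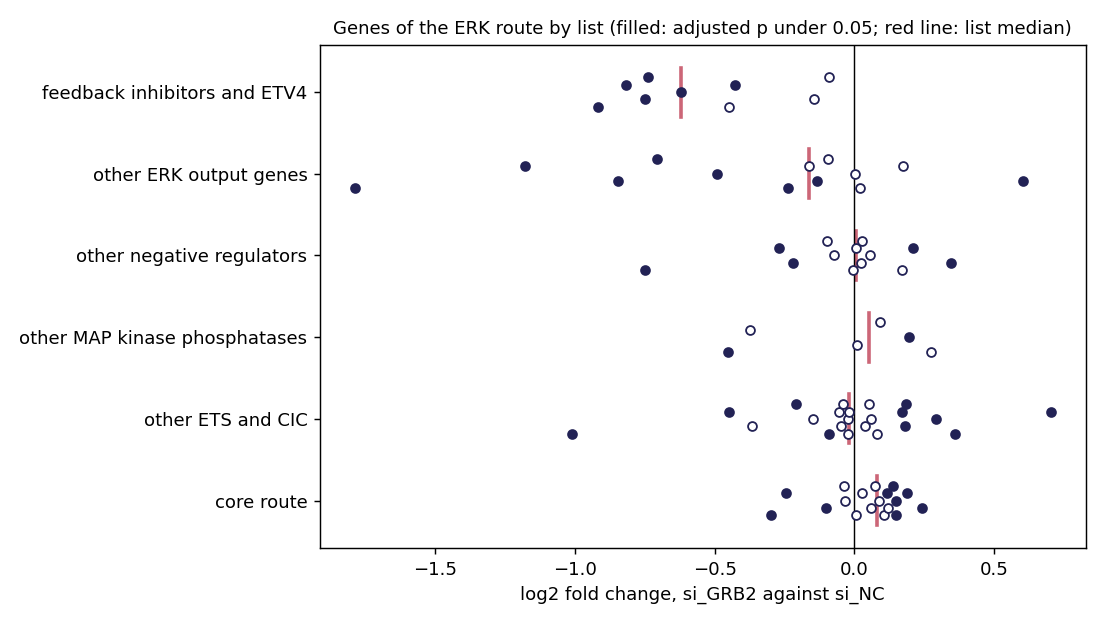
Log2 fold change of si_GRB2 against si_NC for each tested gene of the ERK route by list (filled points have an adjusted p under 0.05, red lines are list medians). The median is −0.62 for the feedback inhibitors and ETV4, −0.16 for other ERK output genes and between −0.02 and 0.08 for the other lists.

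DUSP4, which had the lowest log2 fold change of the 9 feedback and PEA3 genes when all 6 libraries were used, was also compared with every tested gene over the 6 libraries. The highest Pearson correlations of log2 CPM were those of PIMREG (r = 0.9996), DMAC1 (0.9995) and VDR (0.9994), whose log2 fold changes were −0.33, −0.17 and −0.51. These libraries form 2 groups of 3, and 159 tested genes had r above 0.99 with DUSP4.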

How the data were processed

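RNA was extracted from SK-BR-3 cells with TRIZOL, mRNA was captured on beads, and dUTP libraries that mark strand were sequenced (3 si_NC, 3 si_GRB2). The authors deposited raw read counts per gene and FPKM, made from trimmed reads aligned with HISAT2 to GRCh38. The counting tool, its strand setting and the annotation release are not given in the sources used here. Groups were taken from the sample descriptions, and every value column was mapped.

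Counts were tested with edgeR 4.0.16 in R 4.3.3 (TMM factors, filterByExpr, quasi-likelihood F-test, Benjamini-Hochberg over 15801 genes, threshold 0.05), and the study's fold limit of 1.5 was applied with an adjusted p under 0.01 (whether the study's p was adjusted is not stated). The study used DESeq2, run here as an alternative (1.42.0), as was limma 3.58.1 on log2(FPKM + 1) and log2(FPKM + 0.1). CPM are TMM-scaled. Depth was 24810378 to 28532480 reads on genes, and intervals cover the spread between libraries. Libraries of a group differed by more than sampling noise (chi-square per degree of freedom 2.06 to 4.55), so none was a repeated deposit. Gene positions are from GENCODE 44 on GRCh38, in which 83.4% of the gene IDs have the same version, and promoter windows are from RefSeq.

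Named genes are GRB2, the 10 genes described, from each list of route genes the 3 with the largest absolute log2 fold change among those with an adjusted p under 0.05, and the 3 genes most correlated with DUSP4. The genes and lists were chosen with earlier results of these data known. 1 gene that this rule names is not reported here. The siRNA sequences were not analysed here.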

Additional observations from a re-analysis of the deposited data

How the results depend on the processing

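DUSP4, DUSP5 and SPRED2 stayed lower in si_GRB2 with an adjusted p under 0.05 in all 17 alternatives, and the GRB2 log2 fold change lay between −2.18 and −1.91. The number of feedback and PEA3 genes called lower (6) was 3 with limma on log2(FPKM + 0.1) and 3 with limma on log2(FPKM + 1) at a mean FPKM of at least 1, where only 4 of them were tested. Of all genes, 607 of 29912 and 987 of 10888 fell in these tests. The number past the 1.5-fold limit (5) was 4 with DESeq2 (without ETV4), 3 with library totals only and 1 in each of the 3 FPKM tests, and the cause was not tested. Adding 1 to FPKM pulls the fold change of genes below 1 FPKM towards 0, so that test says little about 1.5-fold for them. SPRY4 was −0.27 and ETV4 −0.24 on that scale. On log2(FPKM + 0.1), DUSP5 (−0.67), SPRY4 (−0.66) and ETV4 (−0.61) passed 1.5-fold but had an adjusted p above 0.01 (limma). Leaving out 1 library at a time gave 5 to 6 genes called lower, 3 to 5 past the limit (3 without si_GRB2 replicate 2) and 0 called higher, with GRB2 at −2.18 to −2.13. Of the 16057 to 16157 genes tested in these fits, 1965 to 2324 fell. The log2 fold change of DUSP6 ranged from −0.208 to 0.0494, above 0 without si_NC replicate 2 (0.0494) and without si_GRB2 replicate 2 (0.0406). That of SPRY2 ranged from −0.68 to −0.33 and that of SPRY1 from −0.20 to −0.07 (−0.07 without si_NC replicate 2), with no call. SPRED1 lost its call on log2(FPKM + 1) (adjusted p = 0.0558, limma) and log2(FPKM + 0.1) (0.0542), SPRY4 on the latter (0.0502), and ETV4 on both (0.105 and 0.120) and without si_GRB2 replicate 3 (0.0524, edgeR).

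The differences between relatives kept their direction in all 8 alternatives, with leave-one-out ranges of −0.99 to −0.74 for DUSP4 and DUSP6, −0.74 to −0.57 for DUSP5 and DUSP6, 0.15 to 0.49 for SPRY1 and SPRY2, −0.56 to −0.06 for SPRY4 and SPRY2, −0.23 to −0.15 for SPRED1 and SPRED2 and −2.04 to −0.88 for ETV4 and ETV5. A replicate block left 6 genes called lower, 5 past the limit and GRB2 at −2.15, and changed no call among these genes. Same-numbered libraries correlated at 0.232, −0.0948 and 0.0804, and differently numbered ones at −0.282 to 0.228. With 3 libraries per group, these values cannot decide whether the numbers pair the libraries. Over all genes, 4838 were called, 4807 with the replicate block, 3787 with DESeq2, and 1400, 1534 and 2689 in the FPKM tests on log2(FPKM + 1), on log2(FPKM + 0.1) and at a mean FPKM of at least 1. DUSP6, ETV4, ETV5 and SPRY2 are limited by depth, with at most 80 reads in a library.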
